A study of Homo sapiens with 4 samples.

Results

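GOSR1, DNAJC5 and ANKFY1 are 3 genes of vesicle traffic whose transcripts carried iCLIP peaks of FLAG-tagged MARF1 in HEK293 cells, an established human embryonic kidney line (HEK293-Trex in the sample titles, called HEK293 below). They were chosen by their peaks: every peak of either replicate, and every interval shared by both replicates, that overlapped the gene body of GOSR1, DNAJC5 or ANKFY1 in the hg19 (GRCh37) genome was taken. This gave 4 of 719 peaks in replicate 1, 6 of 534 peaks in replicate 2 and 2 of 282 shared intervals. Because the members were selected on the peak calls themselves, the fold enrichments, q-values and read numbers below are a description and were not tested.

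The 2 F-MARF1ΔNYN samples (labelled FLAG-tagged MARF1-NYN) came from cells in which a FLAG-tagged MARF1 without its ribonuclease activity was induced with 100 ng/mL doxycycline for 12 hours. The 2 control samples came from HEK293 cells with no FLAG-tagged protein, taken through the same FLAG immunoprecipitation, and the labels name no doxycycline for them. All cells were crosslinked with 254 nm UV light at 400 mJ per square cm. The protein is expressed from an inducible promoter and cannot cleave RNA through its NYN domain, so the peaks record where this mutant was crosslinked. Peaks had been called separately in each replicate, with the equally numbered control as background, and no peak lay above a q-value of 0.0489 in replicate 1 and 0.0433 in replicate 2. Library totals are not known here.

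Vesicles carry cargo between membrane compartments, and SNARE proteins on vesicle and target membranes zip together to fuse them. GOSR1 is a Golgi SNARE that acts in transport from the endoplasmic reticulum to the Golgi and within it. DNAJC5, the cysteine string protein, is a co-chaperone on secretory vesicles that works with HSC70 to keep SNARE proteins folded, and ANKFY1 (Rabankyrin-5) is an effector of the small GTPase Rab5 on early endosomes. MARF1 is a cytoplasmic RNA-binding protein with a NYN endonuclease domain and a row of LOTUS domains.

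The transcript sequence under the summits shows what lay at the position of highest read coverage. Each line gives 30 bases of GRCh37 on the transcript strand, 5′ to 3′, with the base at the summit in capitals. In the DNAJC5 shared site the summits of both replicates are in capitals. A summit is the highest point of reads extended to 100 bp, not the crosslinked base.
GOSR1, replicate 1, chr17:28853038-28853067: aggaaggggctccgtGgggatcccatgaag
GOSR1, replicate 2, chr17:28852949-28852978: acatgtagacagctaGgccagtgctttttc
DNAJC5, both replicates, chr20:62566058-62566087: ccagcaccCagtggggacctactAgaaaaa
DNAJC5, replicate 2, highest fold enrichment, chr20:62566574-62566603: cagcaggagtgtcatTcatgctgctgtccc
ANKFY1, replicate 1, chr17:4069015-4069044: gcctgtcattgcacTcagaatcttaagatc
ANKFY1, replicate 2, highest fold enrichment, chr17:4068185-4068214: ccacgttctctccaAggagtggggtctacg
ANKFY1 is transcribed from the minus strand, so its lines read against the chromosome.

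All 3 genes had a peak in each replicate, and all 10 peaks had their summit in a 3'UTR. Most other peaks did too, 568 of 715 in replicate 1 and 450 of 528 in replicate 2. Among 20149 protein-coding genes, 1.94% had a replicate 1 peak in the gene body, 1.23% had a replicate 2 peak and 0.571% had a shared interval. A shared interval lay in 2 of the 3 genes, GOSR1 and DNAJC5. Since the genes were selected on these peaks, nothing is read from the difference between their counts and these percentages. The 3'UTR took up 10.4% of the GOSR1 gene body, 10.9% of that of DNAJC5 and 3.95% of that of ANKFY1, so the peaks occupied a small stretch of each gene. No member gene had a peak in its introns, coding exons or 5'UTR.

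**Figure D1:**
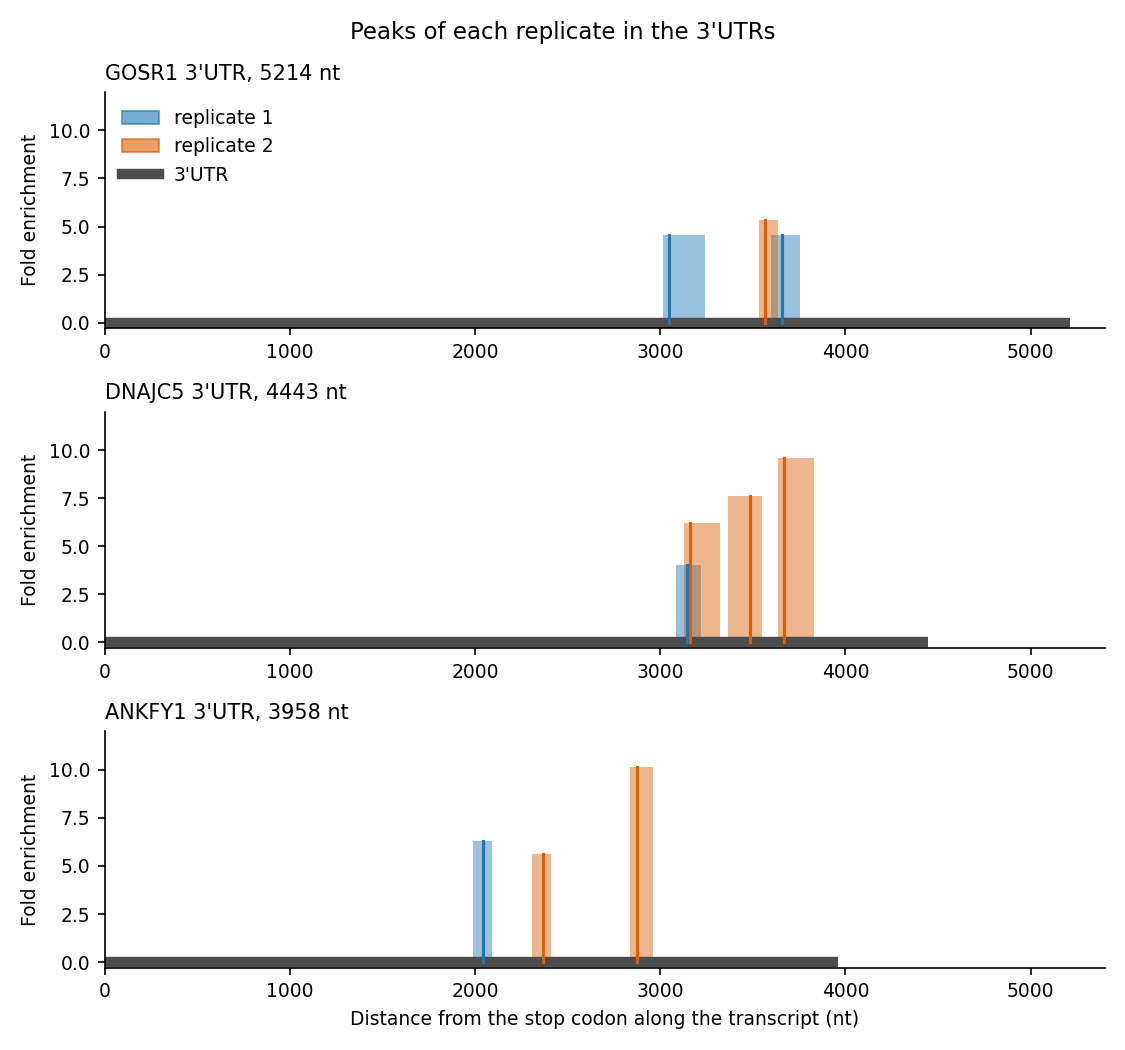
Peaks of both replicates along the 3'UTRs of GOSR1, DNAJC5 and ANKFY1, with the distance from the stop codon in nt on the x axis and the fold enrichment over the local background on the y axis. Boxes span the peaks of replicate 1 (blue) and replicate 2 (orange), lines mark summits, and the boxes of the 2 replicates overlap in GOSR1 and DNAJC5 but not in ANKFY1.

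The Golgi SNARE gene GOSR1 (ENSG00000108587, chr17:28804380-28854610, plus strand) carried its peaks deep in a 3'UTR of 5214 nt. Of its 5 coding transcripts with an annotated 3'UTR, only GOSR1-201 and GOSR1-204 extend over the peaks, and the 3'UTRs of the others end before them. Replicate 1 had 2 peaks, at chr17:28852412-28852635 and chr17:28852995-28853149, both with a fold enrichment of 4.56 and a q-value of 0.00187. Replicate 2 had 1 peak, at chr17:28852930-28853029, with a fold enrichment of 5.33 and a q-value of 0.000896. The fold enrichment is a linear ratio of the reads at the summit to those that the local control background would give, with 1 added to each.

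These GOSR1 peaks rested on few reads. Each replicate 1 summit had 4 reads (95% Poisson interval 1.09 to 10.2), and the background there was 0.0964 expected reads. The replicate 2 summit had 5 reads (1.62 to 11.7) over a background of 0.0800. Such a background equals 12 control reads in 10 kb in replicate 1 and 8 in replicate 2, and the depth of the control libraries is not known. Over all 282 shared intervals the lowest background was 0.0546 in replicate 1 and 0.0578 in replicate 2. The Poisson intervals cover counting error only, and those of the 2 replicates overlap almost entirely. In replicate 1, 6 of 719 peaks had fewer reads than the GOSR1 peaks, and in replicate 2 no peak had fewer. At these backgrounds a position needed 3 reads in replicate 1 and 4 in replicate 2 to reach the lowest p-value that was called. No replicate 2 peak with 4 reads was in the list, so the GOSR1 summit of replicate 2 was at the fewest reads found there.

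The GOSR1 shared interval, chr17:28852995-28853029, was 35 bp long. It covered 22.6% of its replicate 1 peak and 35% of its replicate 2 peak, and ranked 17 from the shortest of the 282 shared intervals. The summits, 89 bp apart, lay on either side of it, so neither summit was inside the shared interval. Ordered by the replicate with fewer reads, no shared interval ranked lower than GOSR1, and 3 intervals including it had as few as 4. The replicate 1 peak nearer the stop codon had no counterpart, and 294 bp separated it from the peak of replicate 2.

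DNAJC5 (ENSG00000101152, chr20:62526479-62567384, plus strand), the vesicle co-chaperone gene, had more reads under its peaks and more background. Its only annotated coding 3'UTR, that of DNAJC5-201, is 4443 nt long. Replicate 1 had 1 peak, at chr20:62566007-62566143, with a fold enrichment of 4.03 and a q-value of 0.00168. Replicate 2 had 3 peaks, which increased in fold enrichment with distance from the stop codon. The first, chr20:62566049-62566243, had a fold enrichment of 6.20 (q-value 4.65e-05). The second, chr20:62566288-62566472, had 7.64 (q-value 6.79e-07), and the third, chr20:62566557-62566749, had 9.60 (q-value 7.32e-11). Only the first of these overlapped the peak of replicate 1, and 413 bp separated the highest of the 3 from it.

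The reads at the DNAJC5 summits differed less than the fold enrichments. Replicate 1 had 16 reads (95% Poisson interval 9.15 to 26.0) and replicate 2 had 12 (6.20 to 21.0) at the shared site, and 11 (5.49 to 19.7) and 14 (7.65 to 23.5) at its other peaks. All 4 intervals overlap one another. The background was 3.21 expected reads in replicate 1, against 1.0, 0.5 and 0.490 in replicate 2. A background of 3.21 allows at most 4 control reads within 100 bp of the summit, or 400 control reads over 10 kb. The size of the window that set it, among these or others, cannot be told from the lists. Ordered from the highest, the replicate 1 background at DNAJC5 ranked 12 among the 282 shared intervals. Its fold enrichment in replicate 1 was the lowest of all 282, while 88.5% of replicate 1 peaks had fewer reads. The low ratio in replicate 1 therefore went with a high control background, whose part in it was not tested. A position with this background needed 14 reads to reach the lowest called p-value, and in the other replicate a background of 1.0 needed 9.

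The DNAJC5 shared interval, chr20:62566049-62566143, was 95 bp long and held both summits, which lay 15 bp apart. It covered 69.3% of the replicate 1 peak and 48.7% of the replicate 2 peak. Over all 282 shared intervals the median length was 120.5 bp and the median distance between summits 49.0 bp. The fold enrichment in replicate 2 was 1.54 times that in replicate 1 for DNAJC5, and 1.17 times for GOSR1. By the lower of its fold enrichments DNAJC5 ranked 3 from the lowest of the 282 and GOSR1 ranked 15, against a median of 6.69 over all shared intervals. Both intervals had a score of 27, which is the score of the replicate 1 peak. In the annotation deposited with the final list both were placed in a 3'UTR and assigned to GOSR1 and DNAJC5, whereas the nearest promoters named there were those of TBC1D29 and MIR1914.

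Short sequence motifs were counted in the 100 bases at each summit. ATTTA was found on the transcript strand at 1 of 4 member summits of replicate 1, the GOSR1 summit beside the shared interval (the letters start 42 bases past it), and at 0 of 6 of replicate 2, beside 17.1% and 11.8% of the other windows. On the opposite strand it was found at 1 of 4 in replicate 1, in GOSR1, and 1 of 6 in replicate 2, in DNAJC5, beside 19.0% and 14.2%. AATAAA was found at none of the 10 member summits on either strand. On the transcript strand it was in 6.69% of the other windows of replicate 1 and 5.56% of those of replicate 2. On the opposite strand it was in 8.80% and 7.11%. These matches are a description of the letters in each window.

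**Figure D2:**
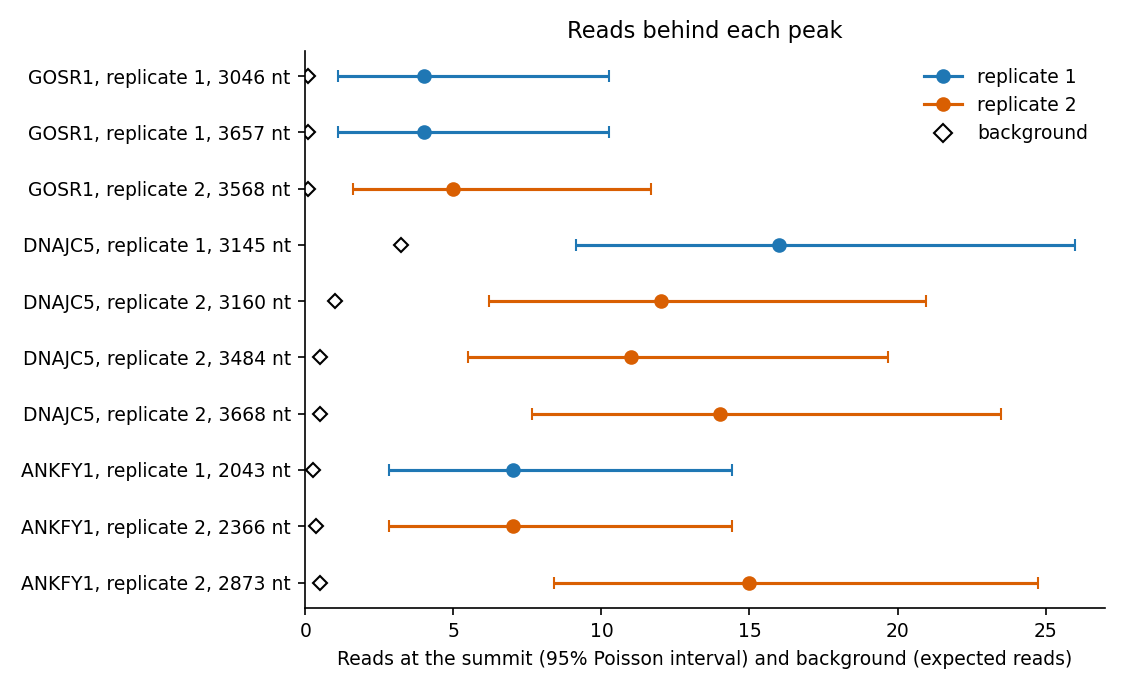
Reads at the summit of each member peak, solved from the deposited fold enrichment and p-value, on the x axis, with 1 peak per line named by gene, replicate and distance of the summit from the stop codon. Bars are 95% Poisson intervals and diamonds the local background in expected reads; the background of 3.21 at the DNAJC5 peak of replicate 1 stands apart from the other 9, which reach at most 1.0.

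ANKFY1 (ENSG00000185722, chr17:4067115-4167290, minus strand), the Rab5 effector gene, had peaks in both replicates but no shared interval. In replicate 1 its peak lay at chr17:4068983-4069082, with a fold enrichment of 6.32 (q-value 3.33e-05). In replicate 2 a peak at chr17:4068111-4068234 had a fold enrichment of 10.2 (q-value 3.96e-12), and another at chr17:4068665-4068764 had 5.63 (q-value 0.00300). The nearest edges of peaks from different replicates were 218 bp apart and their summits 323 bp apart. From the strongest peak of replicate 2 to the replicate 1 summit the distance was 830 bp. ANKFY1 is therefore not in the final list of shared intervals, although its 3 peaks fell within a stretch of 972 nt of the 3'UTR.

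The ANKFY1 replicate 1 summit had 7 reads (95% Poisson interval 2.81 to 14.4) over a background of 0.265. The strongest replicate 2 summit had 15 reads (8.40 to 24.7) over 0.5, and the weaker had 7 (2.81 to 14.4) over 0.360. The fold enrichment of 10.2 was the highest of the 10 member peaks, with 84.6% of replicate 2 peaks below it. In contrast, only 11.6% of replicate 2 peaks lay below the weaker ANKFY1 peak, and it was 1 read above the 6 needed at its background. In replicate 1 the peak lay near the middle of the list, with 52.7% of peaks below it, and 5 reads would have reached the lowest called p-value. Peaks of a replicate with no overlap in the other replicate had fewer reads in general, with a median of 7 in replicate 1 and 10 in replicate 2, against 12 and 14 for those in shared intervals. How many reads the other replicate had under each unshared peak cannot be read from lists of called peaks, so absence of a peak is not absence of reads.

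The ANKFY1 peaks fell in alternative ends of the transcript. The replicate 1 summit and the weaker replicate 2 summit lie in the 3'UTRs of ANKFY1-201 and ANKFY1-202, whereas the strongest summit lies in that of ANKFY1-201 alone. The gene body of CYB5D2, on the plus strand, also covers the 3 ANKFY1 peaks, but no exon of CYB5D2 or of another gene lies under them. The peak lists carry no strand, so the assignment to ANKFY1 rests on the annotated exon. Across the coding genes 165 had a peak of each replicate in the gene body, of which 115 had a shared interval and 50, ANKFY1 among them, did not. A peak was counted for each coding gene whose body it overlapped, so the ANKFY1 peaks count for CYB5D2 too.

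**Figure D3:**
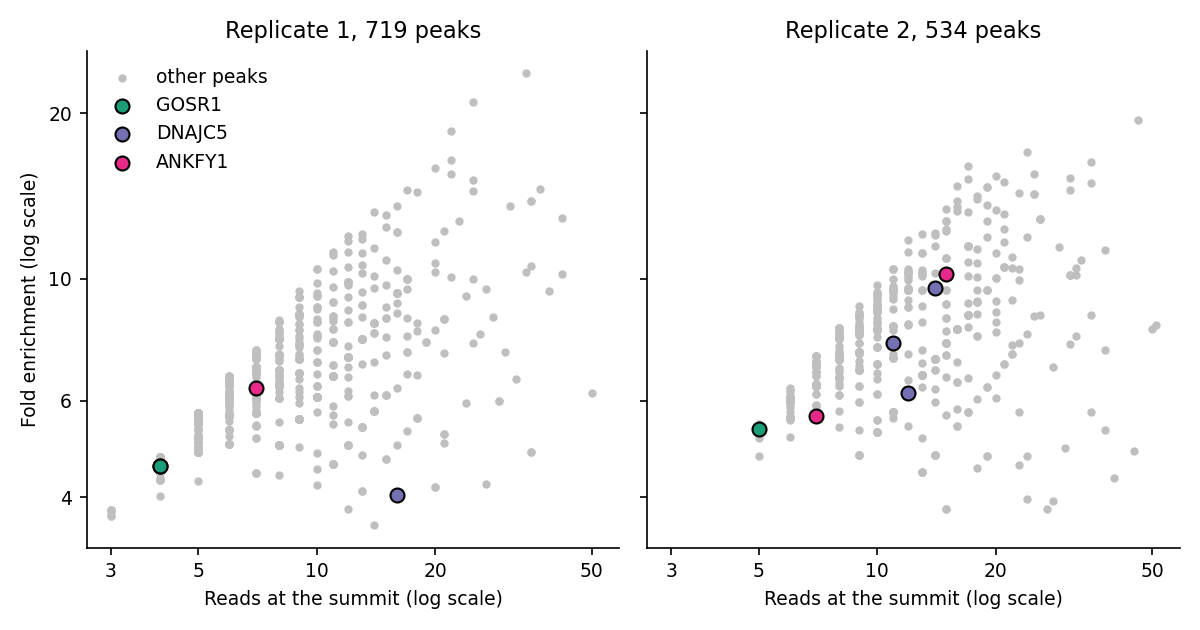
Reads at the summit (x axis) and fold enrichment (y axis), both on log scales, for the 719 peaks of replicate 1 (left) and the 534 of replicate 2 (right), with the peaks of GOSR1, DNAJC5 and ANKFY1 coloured. The 2 GOSR1 peaks of replicate 1 have the same values and share a point, and the DNAJC5 peak of replicate 1 combines 16 reads with a fold enrichment of 4.03.

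The peaks of the 3 genes lay in the later part of long 3'UTRs. Summits were at 3046, 3657 and 3568 nt past the stop codon in GOSR1, between 3145 and 3668 nt in DNAJC5, and at 2043, 2366 and 2873 nt in ANKFY1. As a share of the 3'UTR they ranged from 51.6% in ANKFY1 to 82.6% in DNAJC5. Of the 280 other shared intervals 231 had their middle base in a 3'UTR, at a median of 1904 nt from the stop codon (quartiles 1022 and 3089) and 54.6% of its length (31.6% and 73.4%). The GOSR1 and DNAJC5 shared intervals, at 3616 and 3175 nt, lay beyond the upper quartile in nt, but at 69.4% and 71.5% of the 3'UTR they lay below the upper quartile of the shares. The 3'UTRs with other shared intervals had a median length of 3834 nt, and the longest 3'UTR of 19281 coding genes had a median of 1222 nt. A long 3'UTR offers more positions for a peak, and the part of length in these values was not tested.

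Within each gene the base composition of the summits differed. In DNAJC5 the GC content of the 100 bases at the 4 summits was 50%, 51%, 48% and 44%, whereas its 35 windows without a peak had a median of 60% (quartiles 55% and 65%). In 100-base windows all 4 DNAJC5 summits were below the lower quartile of these windows without a peak, but the 50 bases at the replicate 2 summits had 56%, 54% and 50% and the shared interval 55.8%. The consecutive 100-base windows of DNAJC5 that held part of a peak ran from 37% to 68%, on both sides of that quartile. GOSR1 had 52% at both summits flanking the shared interval and 32% at the other summit, with a median of 43.5% in 46 windows without a peak. ANKFY1 had 35% at the replicate 1 summit, and 54% and 48% at the replicate 2 summits, around the median of 44% in its 33 windows without a peak. Hence no common direction held across the 3 genes. The medians over the other 3'UTR peaks were 41% in replicate 1 and 44% in replicate 2.

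**Figure D4:**
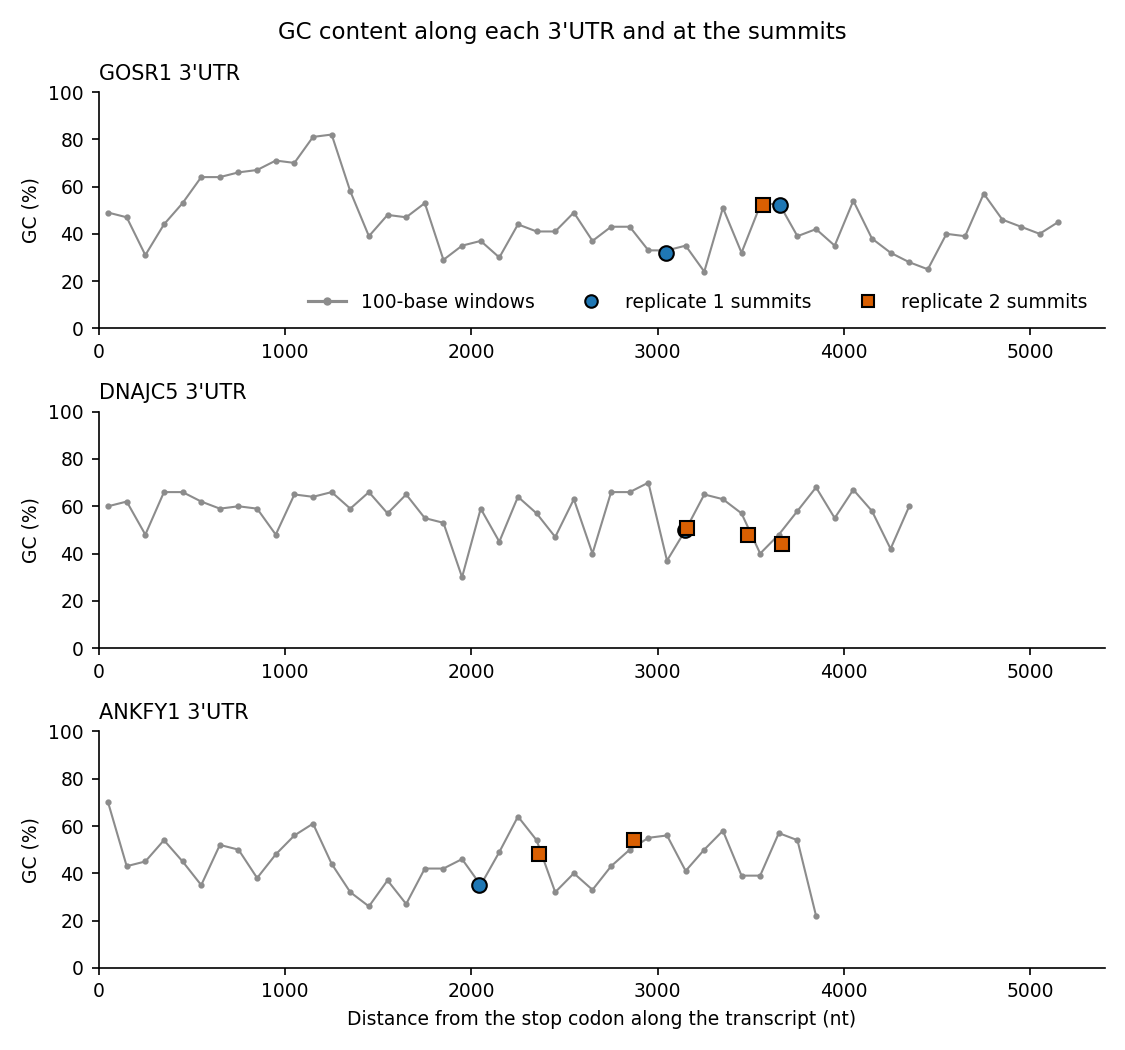
GC content in percent of consecutive 100-base windows (grey) along each 3'UTR, by distance from the stop codon in nt, and of the 100 bases at each summit of replicate 1 (blue circles) and replicate 2 (orange squares). The 4 DNAJC5 summits, at 44% to 51%, lie below the median of 60% of the windows without a peak.

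The predicted folding energy of the same 100 bases, computed without protein or neighbouring sequence, also varied among the members. At the DNAJC5 summits it ranged from -0.3 to -0.194 kcal/mol per nt, and the median of the windows without a peak was -0.307. The GOSR1 summits gave -0.288 and -0.274 on either side of the shared interval and -0.135 at the other peak. The GOSR1 windows without a peak had a median of -0.2105. These values depended on the window, as over 50 bases the same GOSR1 summits gave -0.33, -0.162 and -0.062. The DNAJC5 replicate 1 summit gave -0.255 over 100 bases and -0.162 over 50. The mean over all member summits was -0.2202 over 100 bases and -0.2016 over 50. ANKFY1 ranged from -0.238 at its strongest replicate 2 peak to -0.0670 at the replicate 1 peak, with a median of -0.218 in its windows without a peak. The ANKFY1 replicate 1 value lay near the weak end of the predicted folds. The other 568 replicate 1 windows ran from -0.543 to -0.0540 with a median of -0.202.

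Sequence similarity to other places in the genome differed between the genes. No GOSR1 or ANKFY1 peak matched another place in GRCh37 at an expect value of 1e-05. Each of the 4 DNAJC5 peaks matched a stretch of chromosome 8, in the gene body of ENTPD4-DT, with an identity of 88.5% over 139 aligned bases for the replicate 1 peak and 89.4% over 141, 87.4% over 190 and 83.5% over 194 for those of replicate 2. None of the 1253 peaks of either replicate lay at that stretch, and no match reached 95% identity over 90% of a peak. The paper reports the removal of multi-mapping reads. Its methods name the removal of secondary alignments and of reads above a set number of mapped places. A read that fitted only DNAJC5 and chromosome 8 would fall below that number, and its primary alignment could have been kept. The part of reads from the chromosome 8 copy in the DNAJC5 values was not tested.

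Other genes of the same pathways had replicate 1 peaks at a share near that of all coding genes. Among 33 other genes of the Golgi SNARE machinery, 1 had a peak in replicate 1 and 0 in replicate 2. Among 31 other genes of SNARE chaperones and exocytosis there were 0 in either replicate, and among 45 other genes of the early endosome and RAB5 there was 1 in replicate 1 and 0 in replicate 2. Over all 109 genes this made 2 in replicate 1, or 1.83% beside the 1.94% of all coding genes. There were 0 in replicate 2 and 0 with a shared interval, where the shares of all coding genes were 1.23% and 0.571%, and nothing about these pathways is read from the counts. Expression of these genes in the cells was not measured here, and its part in the counts was not tested.

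The 2 genes were NAPG and APPL1. NAPG encodes gamma-SNAP, an adaptor of NSF in the disassembly of SNARE complexes, and its peak at chr18:10552244-10552343 had a fold enrichment of 6.12 with 6 reads (q-value 1.77e-05). APPL1 encodes an adaptor on early endosomes that binds Rab5, and its peak at chr3:57303905-57304068 had 5.17 with 5 reads (q-value 0.000788). Both lay in 3'UTRs, at 2057 of 2544 nt in NAPG and at 255 of 3784 nt in APPL1. As for the first GOSR1 peak, neither had a peak in the other replicate.

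The genes with the most similar enrichment were taken from 98 other genes with a shared interval, by the Euclidean distance between the highest log2 fold enrichments over the 2 replicates. The 98 are fewer than the 115 coding genes with a shared interval in the gene body, so the order holds only among the genes compared. For GOSR1 these were NUDT21 (4.99 in replicate 1 and 5.97 in replicate 2), URB2 (5.48 and 5.73) and MAGT1 (5.50 and 5.72). For DNAJC5, at 4.03 and 9.60, they were HOXA13 (4.11 and 8.18), TMEM65 (4.99 and 9.55) and TP53RK (4.99 and 9.47). For ANKFY1, at 6.32 and 10.2, they were FLVCR1 (6.89 and 10.2), DNAJA1 (7.21 and 9.53) and SBNO1 (7.11 and 11.1). All values are fold enrichments, and those of a gene need not come from the same site. The ANKFY1 pair comes from summits 830 bp apart, in a gene with no shared interval, and the DNAJC5 pair from summits 523 bp apart. A distance over 2 replicates describes a level, not a pattern across conditions.

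The nearest peak outside GOSR1 was in the 3'UTR of SSH2, 846890 bp away in replicate 1. Outside DNAJC5 it was in the 3'UTR of STMN3, 254414 bp away in replicate 2, and outside ANKFY1 in that of DERL2, 1210318 bp away in replicate 2.

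The calls in these genes depended on the threshold. With both peaks at a q-value below 0.01, the 2 shared intervals stayed, as did 97.9% of all 282. Below 0.001 there were 0, where 89.0% of all shared intervals passed, because the replicate 1 peaks of GOSR1 and DNAJC5 had q-values of 0.00187 and 0.00168. At that threshold 1 of 4 replicate 1 peaks was left, that of ANKFY1, beside 85.5% of all replicate 1 peaks, and 5 of 6 of replicate 2, beside 92.1%. When the shared interval had to cover at least 50% of each peak, 0 of the 2 were left, and 49.6% of all shared intervals passed.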

How the data were processed

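iCLIP was performed on 2 F-MARF1ΔNYN and 2 control samples of HEK293 cells. According to the study's methods and the submitters' processing notes, reads were trimmed (Trimmomatic 0.32), aligned to hg19 (STAR 2.3.0e), cleared of secondary alignments (SAMtools 1.9) and duplicates (Picard 2.10.7), and peaks were called per replicate, without pooling, with MACS2 2.1.1; HOMER 4.10 annotated the intersection. Each deposited peak has a score, its fold enrichment as a linear ratio, and −log10 values of its p-value and its q-value. No values per library were used, so the depth per sample is unknown.

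Reads and background at each summit were solved from the fold enrichment, with a pseudocount of 1, and the Poisson p-value. All 719 and 534 peaks were solved, 718 and 528 with a single solution, at a read weight of 1.0 in replicate 1 and 0.951 in replicate 2. In simulated data 100 of 100 peaks were recovered at a read weight of 1.0 and 100 of 100 at 0.9. The simulated peaks were made with the formulas that the solver inverts, so their recovery checks the arithmetic only. Their backgrounds were all below that of the DNAJC5 peak of replicate 1. The reads were then given 95% exact Poisson intervals. Control reads in replicate 1 had a weight of 0.803.

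Overlaps needed 1 bp. Genes and 3'UTRs came from GENCODE release 44 on GRCh37, and 0 of 1253 peaks ended past a chromosome of that genome. All 282 deposited shared intervals equalled the overlap of a peak of each replicate. All 112 symbols of the pathway lists were matched. Folding used ViennaRNA 2.7.2 and sequence matches blastn 2.17.0, with scipy 1.17.1, pandas 2.3.3, pysam 0.24.0 and matplotlib 3.10.9. The genes named were the members, every listed gene with a peak, the 3 genes nearest to each member in fold enrichment and the nearest gene with a peak outside each. CYB5D2, ENTPD4-DT, TBC1D29 and MIR1914 were named after their values were seen. The members and lists were chosen with earlier results of these data known. Alternatives were stricter q-values, other overlap rules, 5 kb past the gene end, other annotation and windows, and leaving out each replicate. No test was made.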

Additional observations from a re-analysis of the deposited data

How the results depend on the processing

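Of 25 alternatives 17 left their value within 1 SD between replicates, or a count within 1.5 times, and 8 did not. Some of the 17 could not have moved, so their number does not measure stability. The nearest peak outside a member gene was 254414 bp away, far past 5 kb, and a stricter filter on 0 listed genes can only give 0. Replicate 1 had the lower fold enrichment in both shared intervals, so leaving out replicate 2 kept the median. The 2 shared intervals became 0 at a q-value below 0.001, since fewer peaks pass, and 0 with a reciprocal overlap of 50%. Without either replicate the members had 4 to 6 peaks. The 4 peaks of replicate 1 became 1 below 0.001. The median of the lower log2 fold enrichment was 2.101 and ranged from 2.101 to 2.52 without a replicate. For GC content and folding energy the SD was taken between the replicate means, over 4 summits in replicate 1 and 6 in replicate 2. These summits lay at partly different sites, so that SD also holds differences between sites. The mean GC content of 46.6% at the summits became 53.6% over the whole shared intervals. That alternative changed the stretch measured, and it left out ANKFY1 and the GOSR1 and DNAJC5 peaks in no shared interval. The listed genes had 0 shared intervals. Counting the peaks of 1 replicate in place of shared intervals gave 2 listed genes in replicate 1 and 0 in replicate 2. With a read weight of 1 the 4 member peaks of replicate 1 were solved and 0 of replicate 2, so that alternative gave no value there. No paired analysis was possible because the results come from no test between groups, and each ratio was already taken by the peak caller against the equally numbered control. Summits of 4 to 16 reads limit every ratio here.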
